A study of Homo sapiens with 8 samples.

Results

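The proteasome genes examined here were 44 genes of the 17958 that had a probe set of their own, taken as every symbol of the array's gene table that starts PSMA, PSMB, PSMC, PSMD, PSME, PSMF or PSMG followed by a digit. The immunosubunits PSMB8, PSMB9 and PSMB10 were left out of this set, as were pseudogenes and antisense transcripts, and each gene was read from its probe set with the highest mean over the 8 arrays. Of the 44 genes, 42 code for subunits, assembly factors or regulators of the proteasome. The other 2, PSMC3IP and PSME3IP1, share the prefix but code for partner proteins, and are counted as members but described apart. PSMC5, PSMD7 and PSMD13 were not analysed here. Expression was measured as log2 signal on whole-transcript arrays in 2 human lymphoma lines: KMH2, from Hodgkin lymphoma, and Ramos, a Burkitt lymphoma line with a B-cell phenotype. The groups were KMH2 control cells without glucosamine (3 arrays), KMH2 cells given glucosamine for 24 h (3 arrays) and Ramos cells (2 arrays). All were grown in serum-supplemented RPMI medium. Glucosamine is an amino sugar that enters the hexosamine pathway, and its dose is not stated in the sources used here. The labels call both Ramos arrays control, while the series' design text places 1 of them after glucosamine, so Ramos is described as a cell line and neither array is given a treatment. The KMH2 replicates are biological per the design text.

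The proteasome degrades proteins tagged with ubiquitin. Its core particle is a barrel of 2 outer alpha rings and 2 inner beta rings, and the beta subunits PSMB5, PSMB6 and PSMB7 carry the active sites. The regulatory particle caps the barrel: a base with an ATPase ring (PSMC genes) unfolds substrates, and a lid removes ubiquitin. Other caps (PSME genes) open the barrel without ATP, and dedicated chaperones assemble the rings. The active-site subunits can be exchanged for the immunosubunits, which alters the peptides shown on MHC class I. Proteasome inhibitors are used against B-lineage cancers.

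Array medians over the whole table lay between 5.62 and 5.68. Of 6 B-cell markers 5 were measured, with group means from 10.2 to 11.8 in Ramos and from 3.70 to 7.46 in KMH2 control. After glucosamine they were at 3.80 to 7.09, and PAX5 fell by 0.37 (limma adjusted p = 0.0105). The 4 markers of the Hodgkin line lay between 7.17 and 11.4 in KMH2 control, 6.70 and 11.1 after glucosamine and 5.77 and 7.29 in Ramos. All 4 fell after glucosamine: GATA3 by 1.04, TNFRSF8 by 0.73, CCL17 by 0.47 and FSCN1 by 0.28. The pan-leukocyte gene PTPRC was at 6.28 in KMH2 control, 5.78 after glucosamine (a call, adjusted p = 0.0274) and 9.98 in Ramos. Markers of other cells were at 4.17 to 8.19 (4 T and NK markers), 3.88 to 7.39 (4 myeloid), 4.62 to 6.91 (4 fibroblast and epithelial) and 3.38 (1 erythroid) in KMH2 control, and at 4.22 to 8.03, 3.94 to 7.40, 4.23 to 6.80 and 3.37 after glucosamine. In Ramos they were at 4.32 to 5.99, 4.52 to 7.59, 4.63 to 6.84 and 3.55. Among these, CD14 fell by 1.08 after glucosamine (adjusted p = 0.00102), from 7.37 to 6.29, and the others did not pass. The falls of these markers accompanied those of the proteasome genes, and their part in the results was not tested. In bulk RNA, fewer cells of a type and less RNA per cell cannot be told apart, and levels are not compared between genes, whose probes differ.

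Glucosamine lowered a minority of the proteasome genes of KMH2 and raised 1. No core particle gene passed with a lower signal, and 3 of the 16 had an unadjusted limma p under 0.05 and a lower signal. Some were called lower in alternatives: PSMA7 in 5 of 16, PSMB2 and PSMB3 in 3 each, and PSMA5 and PSMB4 in 1 each. PSME3, the nuclear activator cap, fell 1.67-fold, and PSMD1, the large scaffold of the base, fell 1.54-fold. PSMB5, the chymotrypsin-like active site, rose 1.29-fold. In limma's test 9 of the 44 members fell, 1 rose and 34 did not pass, where a call is an adjusted p under 0.05 over all 19181 probe sets with 1 gene symbol. Over all those probe sets 13.9% fell and 11.9% rose. The median difference of the members was -0.06 on the log2 scale, against 0.01 for all probe sets tested. For the 34 that did not pass, the 95% confidence intervals of the difference stayed between -0.47 and 0.33. The 3 glucosamine arrays lay below all 3 control arrays in 21 members and above them in 5, while 20.6% of all probe sets lay below and 20.3% above. The count of falls was 5 without control replicate 1 or 2, 4 without glucosamine replicate 3, and 0 when all 8 arrays shared the spread in limma (6 at an unadjusted p under 0.05), a fit in which PSMB5 kept its call (adjusted p = 0.0169) and PSMD1 (0.0802) and PSME3 (0.0900) did not. PSMB5, PSMC3, PSMD1, PSME2 and PSME3 kept their calls in all 6 fits that left out 1 KMH2 array, PSMD8 in 4 of them, and PSMC2, PSMD2, PSMG1 and PSMD10 in 2.

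**Figure D1:**
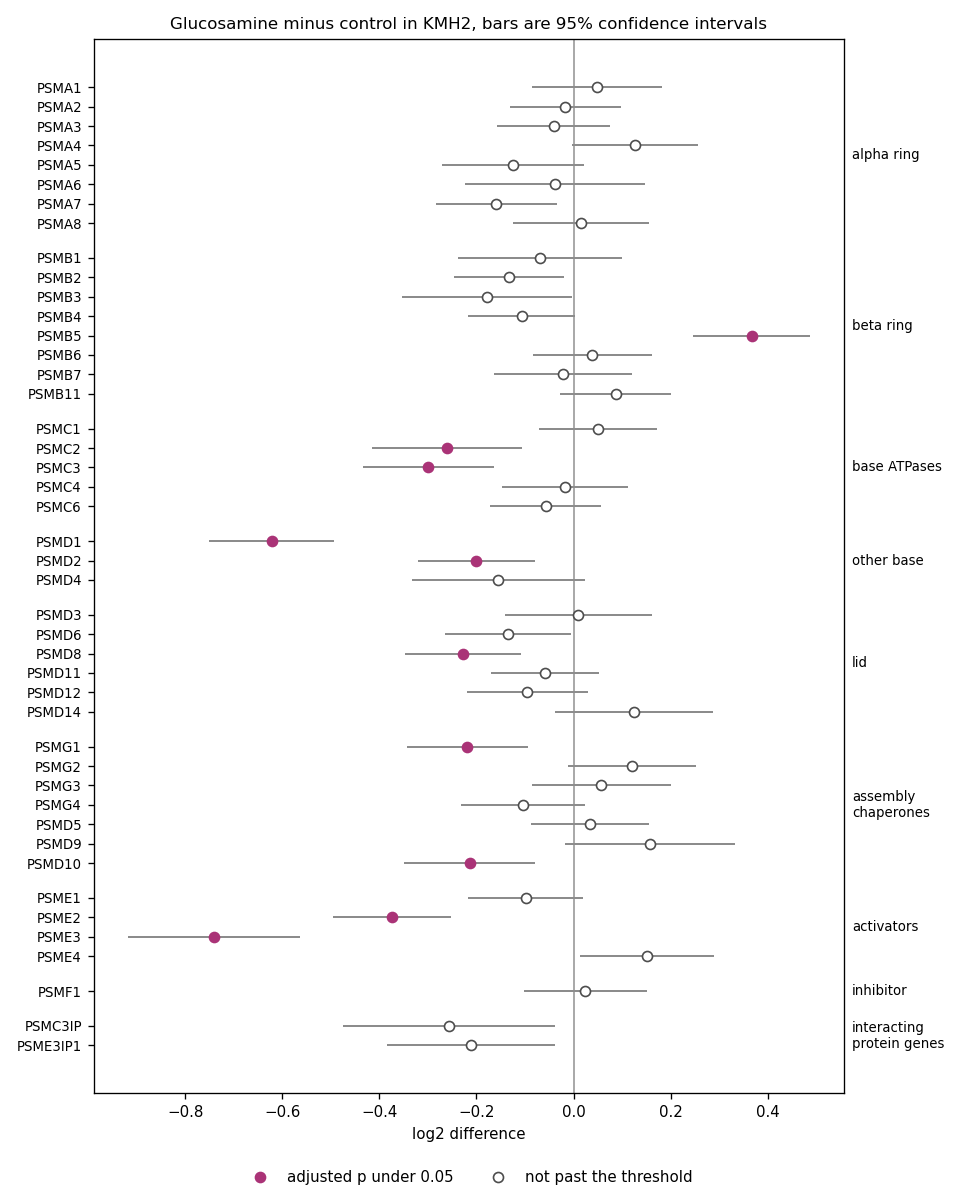
Log2 difference, glucosamine minus control in KMH2 (horizontal axis), for the 44 proteasome genes grouped by role; lines are 95% confidence intervals from limma and filled points have an adjusted p under 0.05. The filled points are PSMB5 to the right of 0 and 9 genes to the left, from PSMD10 (-0.21) and PSMD2 (-0.20) to PSME3 (-0.74).

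Among the beta ring genes only PSMB5 passed. Its log2 signal was 9.56, 9.55 and 9.65 on the control arrays and 9.96, 9.94 and 9.96 after glucosamine. All 3 treated arrays were higher than all controls, and the difference was 0.37 ± 0.05 (SE, n = 3 per group, limma adjusted p = 0.00154). The partner active sites did not pass: PSMB6, the caspase-like site, differed by 0.04 (95% interval -0.08 to 0.16) and PSMB7, the trypsin-like site, by -0.02 (-0.16 to 0.12). The structural subunits PSMB1, PSMB2, PSMB3 and PSMB4 differed by -0.07, -0.13, -0.18 and -0.11, none past the threshold. PSMB11, the thymus form of the PSMB5 active site, gave 3.66 to 3.84 over the 8 arrays and differed by 0.09. It lay under the lower quartile of each array (4.22 to 4.34). Treated arrays also lay below all controls for PSMB2, PSMB3 and PSMB4, and above them for PSMB11.

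None of the 8 alpha ring genes passed, and 1 had an unadjusted limma p under 0.05. That gene was PSMA7, at 10.16, 10.21 and 10.17 in control and 10.09, 9.99 and 9.98 after glucosamine. The treated arrays were all lower, but the difference of -0.16 missed the threshold (adjusted p = 0.0681). It passed with array weights (0.0105), a trend (0.0304), no dim probe sets (0.0353), and when glucosamine replicate 1 (0.0282) or the replicate 1 arrays of both groups (0.0334) were left out. PSMA4 was 0.13 higher and PSMA5 0.12 lower (-0.12), and PSMA1, PSMA2, PSMA3 and PSMA6 lay between -0.04 and 0.05. PSMA8, the testis form of PSMA7, was at 3.54 to 3.80 on all arrays, again under the lower quartile, with a difference of 0.01.

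In the base of the regulatory particle 4 of 8 genes fell, while 13.9% of all probe sets did. Each part holds few genes, and the parts were not compared with each other. PSMD1 read 9.80, 9.78 and 9.89 in control and 9.25, 9.18 and 9.18 after glucosamine. The groups were far apart relative to their spread, with a difference of -0.62 ± 0.06 (SE, n = 3 per group, limma adjusted p = 0.000198). PSMD2, the companion scaffold that docks ubiquitin shuttles, read 9.79, 9.79 and 9.72 and then 9.60, 9.58 and 9.52, a fall of 0.20 (adjusted p = 0.0245). PSMD4, a ubiquitin receptor, was at -0.15 with overlapping groups (adjusted p = 0.195). Of the ATPases, PSMC3 went from 9.47, 9.34 and 9.43 to 9.18, 9.11 and 9.06, a fall of 0.30 ± 0.06 (SE, adjusted p = 0.00661). PSMC2 went from 9.65, 9.65 and 9.54 to 9.46, 9.29 and 9.30, a fall of 0.26 (adjusted p = 0.0222). No array of either ATPase crossed between the groups. PSMC1, PSMC4 and PSMC6 differed by 0.05, -0.02 and -0.06. Second probe sets of PSMC1, PSMC6 and PSMD4 gave 0.06, -0.12 and -0.16, none past the threshold.

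The lid had 1 call among 6 measured genes, a fall, while 13.9% of all probe sets fell. PSMD8 read 10.73, 10.71 and 10.65 in control and 10.51, 10.47 and 10.44 after glucosamine, without overlap, and fell by 0.23 (adjusted p = 0.0137). PSMD14, the deubiquitinase of the lid, was at 0.12, PSMD6 at -0.13, PSMD12 at -0.10, PSMD11, which braces the lid against the core, at -0.06, and PSMD3 at 0.01, none past the threshold.

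Of 7 assembly chaperones 2 fell (13.9% of all probe sets fell). PSMG1 and PSMG2 form a pair that builds the alpha ring. PSMG1 read 9.30, 9.23 and 9.35 and then 9.11, 9.06 and 9.05, a fall of 0.22 (adjusted p = 0.0190). PSMG2 read 9.87, 9.93 and 10.02 and then 10.04, 10.06 and 10.08, a difference of 0.12 that did not pass (adjusted p = 0.173). So the treated arrays lay below all controls for the former and above them for the latter, and the difference between the pair was not tested. PSMD10, also called gankyrin, a base chaperone, fell by 0.21 from 10.75, 10.75 and 10.61 to 10.49, 10.47 and 10.50 (adjusted p = 0.0287). The other base chaperones, PSMD5 and PSMD9, were at 0.03 and 0.16, and the second alpha ring pair, PSMG3 and PSMG4, at 0.06 and -0.10.

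The activator caps held the deepest fall. PSME3 read 11.02, 10.98 and 11.01 in control and 10.09, 10.38 and 10.31 after glucosamine. Every treated array was lower by more than the spread of either group, and the difference was -0.74 ± 0.08 (SE, n = 3 per group, limma adjusted p = 0.000357). PSME1 and PSME2 together form the interferon-inducible cap. PSME2 went from 10.75, 10.71 and 10.64 to 10.33, 10.35 and 10.30, a fall of 0.37 ± 0.05 (SE, adjusted p = 0.00146). PSME1 went from 10.16, 10.19 and 10.22 to 10.04, 10.11 and 10.12, and its difference of -0.10 did not pass (adjusted p = 0.213, 95% interval -0.22 to 0.02). PSME4, a large activator made of a single chain, was 0.15 higher (adjusted p = 0.108), and PSMF1, an inhibitor of the core, differed by 0.02. The partner genes PSMC3IP, of homologous recombination, and PSME3IP1, whose product binds PSME3, were at -0.26 and -0.21. Neither passed (adjusted p = 0.0875 and 0.0777), and with the replicate number as a block both did (0.0349 and 0.0248).

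**Figure D2:**
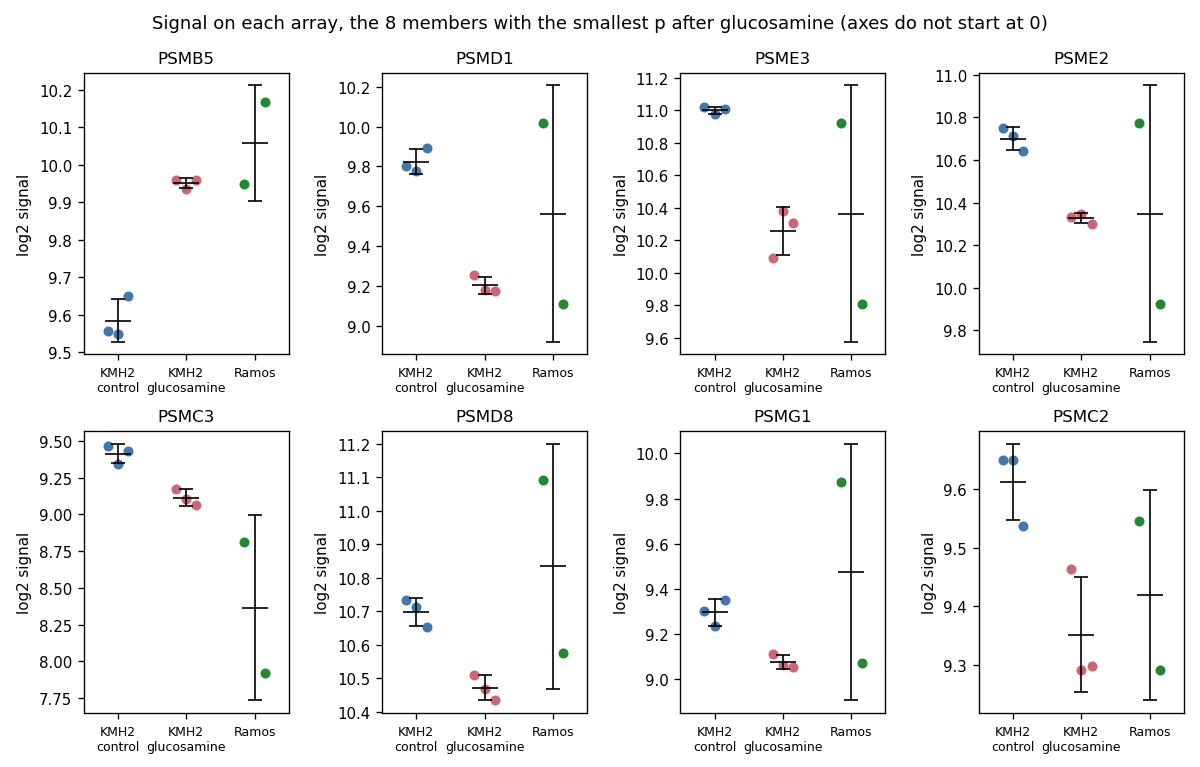
Log2 signal (vertical axis, not starting at 0) on every array for the 8 proteasome genes with the smallest p after glucosamine; points are arrays, horizontal marks are group means and bars are SD (n = 3, 3 and 2). In KMH2 the groups do not overlap in any panel, which the choice by p favours. Over all probe sets the glucosamine arrays lay below all controls in 20.6% and above them in 20.3%. In PSMD1, PSME3, PSME2, PSMC3 and PSMG1 the Ramos arrays lie 0.80 to 1.12 apart.

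Upstream sequence is shown for the 5 genes with the smallest p after glucosamine, and for PSME1 as the cap partner of PSME2. NFE2L1 and NFE2L2 are transcription factors known to act on proteasome genes through antioxidant response elements. Both rose on the same arrays, and whether they acted on the members was not tested. The table gave windows for 38 of the 44 members (47 windows, RefSeq, GRCh38.p14), and the 250 bases before each start were searched on both strands for TGACNNNGC (the core of that element), CCAAT (the NF-Y box) and GGGCGG (the SP1 box). Capitals mark every match, and neighbouring matches can overlap. PSMA7, PSMB1, PSMB6, PSMB7, PSMD4 and PSMG3 had no window.
PSMB5 (rose; chr14:23035221-23035470, minus strand, the upstream of 2 starts): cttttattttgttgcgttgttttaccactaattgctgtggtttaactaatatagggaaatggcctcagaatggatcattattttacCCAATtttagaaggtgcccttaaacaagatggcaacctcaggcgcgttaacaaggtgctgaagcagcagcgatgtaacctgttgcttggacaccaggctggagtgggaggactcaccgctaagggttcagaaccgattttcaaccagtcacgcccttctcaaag
PSME3 (fell; chr17:42833147-42833396, plus strand): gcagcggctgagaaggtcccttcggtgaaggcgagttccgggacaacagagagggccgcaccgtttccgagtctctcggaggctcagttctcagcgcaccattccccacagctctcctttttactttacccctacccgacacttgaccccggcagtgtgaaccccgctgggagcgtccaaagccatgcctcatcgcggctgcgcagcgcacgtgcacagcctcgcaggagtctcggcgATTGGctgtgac
PSMD1 (fell; chr2:231056617-231056866, plus strand): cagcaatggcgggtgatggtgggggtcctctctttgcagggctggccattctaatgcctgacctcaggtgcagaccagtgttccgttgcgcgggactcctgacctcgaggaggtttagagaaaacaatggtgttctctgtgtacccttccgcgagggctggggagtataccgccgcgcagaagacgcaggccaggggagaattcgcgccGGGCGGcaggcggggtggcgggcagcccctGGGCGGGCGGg
PSMC3 (fell; chr11:47426440-47426689, minus strand): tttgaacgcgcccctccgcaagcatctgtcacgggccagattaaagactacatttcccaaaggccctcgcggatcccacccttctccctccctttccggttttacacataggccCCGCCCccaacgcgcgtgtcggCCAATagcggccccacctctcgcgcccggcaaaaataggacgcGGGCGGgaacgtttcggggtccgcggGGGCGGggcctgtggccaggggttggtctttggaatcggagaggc
PSME2 (fell; chr14:24146611-24146860, minus strand): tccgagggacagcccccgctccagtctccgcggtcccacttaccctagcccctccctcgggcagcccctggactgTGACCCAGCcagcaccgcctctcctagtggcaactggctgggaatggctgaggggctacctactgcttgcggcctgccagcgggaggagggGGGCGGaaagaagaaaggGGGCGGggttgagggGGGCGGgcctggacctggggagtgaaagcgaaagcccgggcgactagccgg
PSME1 (not past the threshold; chr14:24135944-24136193, plus strand): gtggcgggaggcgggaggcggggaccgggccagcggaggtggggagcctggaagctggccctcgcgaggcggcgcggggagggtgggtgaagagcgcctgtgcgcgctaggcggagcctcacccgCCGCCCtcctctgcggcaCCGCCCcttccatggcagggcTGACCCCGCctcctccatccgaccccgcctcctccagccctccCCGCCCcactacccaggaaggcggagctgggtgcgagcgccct

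PSME1 and PSME2, partners in 1 cap and near each other on the chromosome, each held 1 TGACNNNGC match and 3 GGGCGG matches, and PSME2 fell while PSME1 did not pass. PSMB5, PSME3, PSMD1 and PSMC3 held no TGACNNNGC match in these windows, and the downstream start of PSMB5 held no match to any of the 3 motifs. PSMD1 held 3 GGGCGG matches, PSMC3 held 3 and 1 CCAAT, and PSME3 and PSMB5 held 1 CCAAT each. Over all member windows TGACNNNGC was present in 11 of 47 (23.4%), CCAAT in 20 (42.6%) and GGGCGG in 30 (63.8%). Over the 22199 windows of protein-coding genes the shares were 11.2%, 32.7% and 53.7%, and over all 35116 windows 10.9%, 32.0% and 42.6%. The members with TGACNNNGC were PSMA4, PSMB3, PSMD3, PSMD5, PSMD9, PSMD12, PSME1, PSME2, PSME4, PSMG1 and PSMG2, of which PSME2 and PSMG1 fell and the others did not pass. A match describes letters and does not show binding.

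Outside the members, 31 genes of the same pathway were measured, of which 6 rose, 8 fell and 17 did not pass after glucosamine. Over all probe sets tested 11.9% rose and 13.9% fell. All 3 immunosubunits fell. PSMB9 read 9.95, 10.04 and 10.01 in control and 9.58, 9.54 and 9.67 after glucosamine, without overlap, a difference of -0.40 (adjusted p = 0.00145). PSMB8, which takes the place of PSMB5, went from 8.03, 8.02 and 8.19 to 7.75, 7.86 and 7.68 and fell by 0.32 (adjusted p = 0.0141). PSMB10 fell by 0.28 (adjusted p = 0.0277), and both genes were chosen after their values were seen. PSMB8 lost its call without control replicate 3 (0.0513) or glucosamine replicate 3 (0.0572), and PSMB10 without any 1 of the control replicates (0.0648, 0.0944 and 0.0753) or glucosamine replicate 3 (0.0695). So the standard subunit PSMB5 rose while its immune counterpart PSMB8 fell, a difference between the genes that was not tested.

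All 3 measured regulators rose. NFE2L1, the factor that raises proteasome genes when proteasome activity drops, read 9.37, 9.43 and 9.31 and then 10.01, 10.07 and 10.06, a rise of 0.68 ± 0.06 (SE, n = 3 per group, limma adjusted p = 0.000139). NFE2L2, the related antioxidant factor, read 9.37, 9.22 and 9.27 and then 9.82, 9.83 and 9.82, a rise of 0.54 (adjusted p = 0.000360). NGLY1, the glycanase that processes NFE2L1, rose by 0.18 (adjusted p = 0.0470, chosen after its value was seen) and lost that call in 5 of the 6 fits without 1 KMH2 array (adjusted p 0.0767 to 0.150). ZFAND2A, a stress-inducible proteasome-binding protein, rose by 0.69 (adjusted p = 0.000772). UCHL5, a deubiquitinase of the base, fell by 0.44 (adjusted p = 0.000815), and the shuttle UBQLN2 fell by 0.34 (adjusted p = 0.00491). With all 8 arrays sharing the spread the calls of PSMB8 (0.245), PSMB10 (0.0579), NFE2L1 (0.0580), NGLY1 (0.104) and UCHL5 (0.195) were lost.

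**Figure D3:**
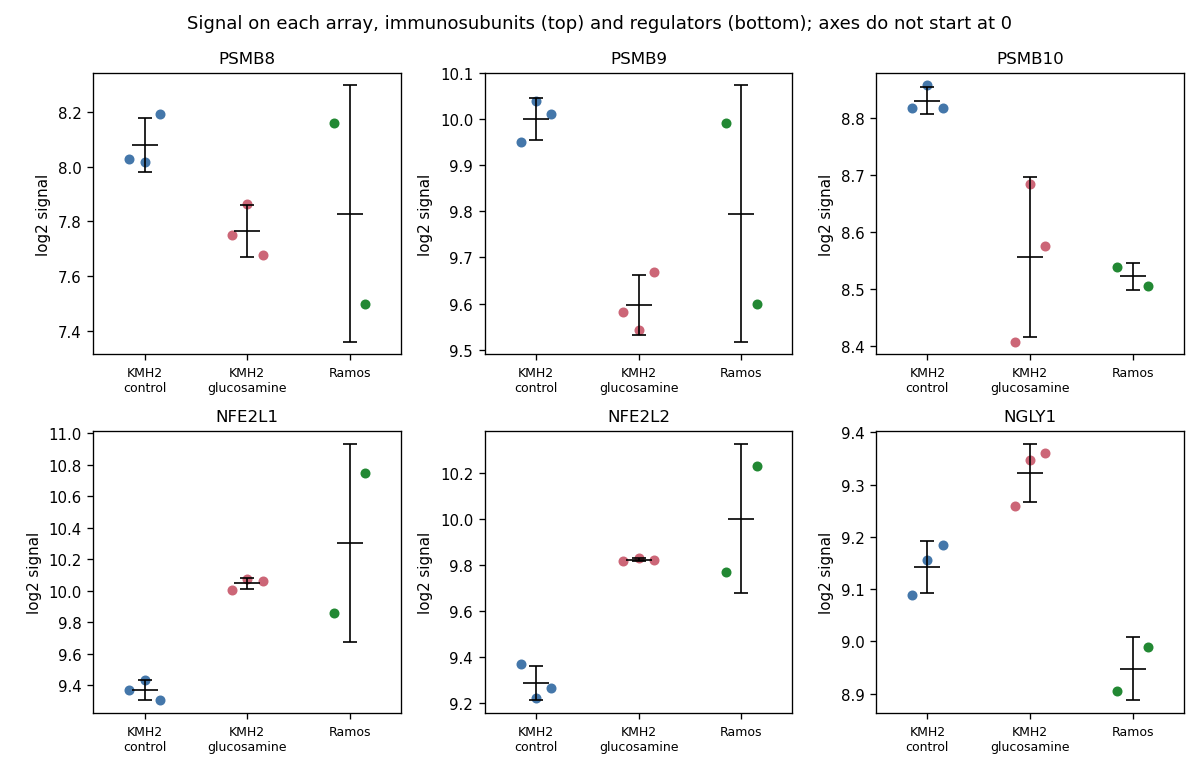
Log2 signal (vertical axis, not starting at 0) on every array for the immunosubunits PSMB8, PSMB9 and PSMB10 (top) and for NFE2L1, NFE2L2 and NGLY1 (bottom); points are arrays, horizontal marks are means and bars are SD (n = 3, 3 and 2). In KMH2 the glucosamine arrays lie below the controls in the top row and above them in the bottom row.

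The second comparison set Ramos against KMH2 control. Labels and design text disagree on whether 1 Ramos array had glucosamine, so line and treatment cannot be told apart in these differences. Most members that differed were lower in Ramos, including 4 of the 5 measured ATPases, of which PSMC3, PSMC4 and PSMC1 had the largest differences among the members. Of the 44 genes 19 were lower, 5 higher and 20 did not pass in limma, while 21.2% of all probe sets were lower and 22.7% higher. The median difference was -0.25, against 0.06 for all probe sets. Centring each array on its median over the 19181 tested probe sets raised every Ramos difference by 0.14 (medians over the whole table would shift it by -0.02), and the split was then 15 lower and 11 higher, with a median of -0.10 for the members. Without Ramos replicate 1 the split was 28 lower and 5 higher, with a median of -0.31. Without Ramos replicate 2 it was 17 lower and 8 higher, with a median of -0.071. In these 2 fits the lone Ramos array is assumed to vary like the KMH2 groups. The main fit gave all 3 groups 1 spread. The median member SD was 0.18 in Ramos, 0.04 in KMH2 control and 0.06 in KMH2 glucosamine. The SE and adjusted p for Ramos may therefore be too small.

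PSMC4, an ATPase, read 11.32, 11.20 and 11.19 in KMH2 control and 10.34 and 10.07 in Ramos, a 2.04-fold lower signal (-1.03 ± 0.09, SE, n = 3 and 2, limma adjusted p = 3.24e-05). PSMC1 read 10.04, 10.00 and 10.00 against 9.32 and 9.06, a difference of -0.82 (adjusted p = 9.90e-05). Both Ramos arrays were lower than every KMH2 array for these ATPases. Here and below, such separation is only description, as the share of all probe sets that separate the lines is not given. PSMC3 differed by -1.05 ± 0.21 (SE, adjusted p = 0.00421), with Ramos arrays at 8.81 and 7.92, both below the controls but far from each other. PSMC6 was at -0.43, and PSMC2 did not pass (-0.19, and -0.32 without Ramos replicate 1).

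In the core particle the directions split. PSMB4 read 11.03, 11.06 and 11.02 in KMH2 control and 10.48 and 10.09 in Ramos (-0.75, adjusted p = 0.000508). PSMB7 read 10.77, 10.75 and 10.83 against 10.26 and 10.04 (-0.63, adjusted p = 0.000492). Both were lower on each Ramos array, and PSMB1 (-0.31), PSMA3 (-0.23), PSMA4 (-0.35), PSMA6 (-0.56) and PSMA7 (-0.61) were called lower as well. PSMB5 was higher, at 9.95 and 10.17 against 9.56, 9.55 and 9.65 (0.47 ± 0.08, SE, adjusted p = 0.00150). PSMB2 (0.43) and PSMA2 (0.37) were also higher. PSMB1 lost its call without any 1 of the control replicates or Ramos replicate 2 (adjusted p 0.0621 to 0.132), and PSMA6 without Ramos replicate 2 (0.0513). With median centring PSMA3 was at -0.09 (0.226) and PSMB1 at -0.17 (0.155), and array weights also ended both calls (0.151 and 0.115). PSMB5 was at 0.29 against all 6 KMH2 arrays as 1 group (0.149).

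In the lid PSMD14 was higher and PSMD6 and PSMD11 were lower. PSMD14 read 10.63 and 10.64 in Ramos against 10.01, 9.98 and 10.03, a 1.55-fold difference (0.63, adjusted p = 0.000326). PSMD11 read 10.18 and 10.11 against 10.64, 10.64 and 10.65 (-0.50, adjusted p = 0.000216), and PSMD6 8.63 and 8.33 against 9.05, 9.12 and 9.16 (-0.63, adjusted p = 0.000789). No Ramos array overlapped the controls for these 3 genes. PSMD2 (-0.39) and PSMD4 (-0.55) of the base were lower. PSMD2 lost its call with median centring (-0.25, adjusted p = 0.0585) and against all 6 KMH2 arrays as 1 group (0.0642). PSMD4 lost its call when its probe sets were averaged (-0.24, adjusted p = 0.0605), its second probe set lying at 4.82 and 5.03 in Ramos and 5.01, 4.82 and 4.72 in control.

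Of the alpha ring assembly pair, PSMG2 was called higher. It read 10.61 and 10.63 in Ramos against 9.87, 9.93 and 10.02 (0.68 ± 0.07, SE, adjusted p = 6.38e-05), higher on both arrays. PSMG1 read 9.87 on Ramos array 1 and 9.07 on array 2, above and below the control values, and did not pass (0.18, adjusted p = 0.496). It was at 0.58 without Ramos replicate 2 (adjusted p = 0.000316) and at -0.22 without Ramos replicate 1 (0.0408), and the difference between the pair was not tested. PSMG4 (-0.40), PSMD5 (-0.34), PSMD9 (-0.54) and PSMD10 (-0.26) were lower, PSMD10 losing its call without control replicate 1 (0.0546) or 2 (0.0588), with array weights (0.166), with median centring (-0.11, 0.171) and against all 6 KMH2 arrays as 1 group (0.252). None of the 4 activators passed in limma (1 at an unadjusted p under 0.05): PSME3 was at -0.64 (adjusted p = 0.0913), PSME2 at -0.35, PSME1 at 0.16 and PSME4 at -0.07. With median centring PSME1 was called higher (0.30, limma adjusted p = 0.0128). Without Ramos replicate 1, PSME3 (-1.19, adjusted p = 2.67e-05), PSME2 (-0.78) and PSME4 (-0.25) were called lower, and without Ramos replicate 2 PSME1 was called higher (0.26). The remaining members, PSMA1, PSMA5, PSMA8, PSMB3, PSMB6, PSMB11, PSMD1, PSMD3, PSMD8, PSMD12, PSMG3, PSMF1 and the 2 partner genes, did not pass. Of these, PSMA8, PSMB6, PSMB11, PSMD3 and PSMF1 were called higher with median centring, which raised every Ramos difference by 0.14. PSMA8 and PSMB11 lay under the lower quartile of every array. Without Ramos replicate 1, PSMB3 was at -0.49, PSMD1 at -0.72, PSMD12 at -0.23 and PSMG3 at -0.34. Without Ramos replicate 2, PSMD8 was at 0.39.

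**Figure D4:**
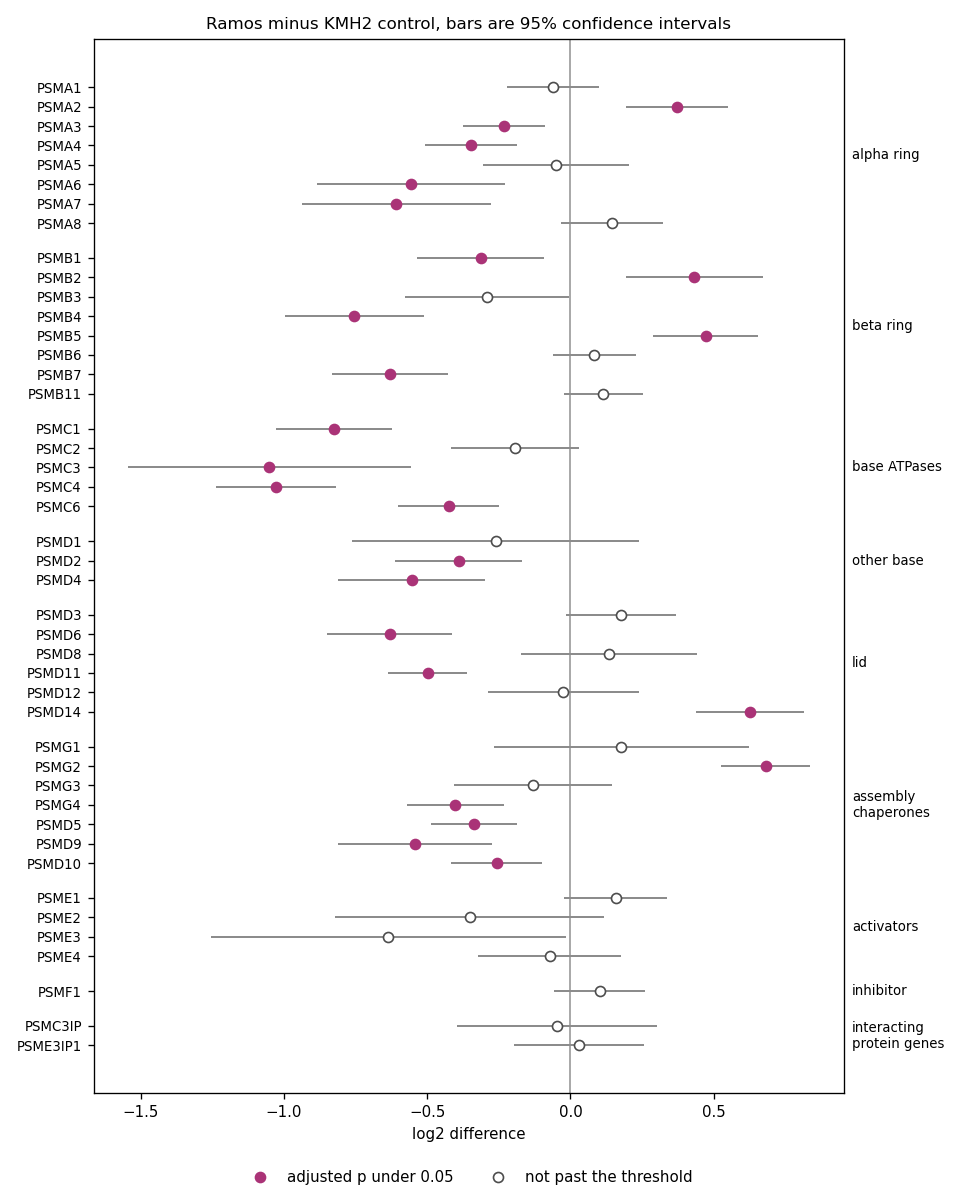
Log2 difference, Ramos minus KMH2 control (horizontal axis), for the 44 proteasome genes grouped by role; lines are 95% confidence intervals from limma and filled points have an adjusted p under 0.05. Filled points lie left of 0 for 19 genes, PSMC3 (-1.05) and PSMC4 (-1.03) farthest, and right of 0 for PSMA2, PSMB2, PSMB5, PSMD14 and PSMG2.

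Among the 31 other pathway genes 8 were higher and 10 lower in Ramos, while 22.7% of all probe sets were higher and 21.2% lower. AKIRIN2, which carries proteasomes into the nucleus, read 10.31 and 10.73 in Ramos against 8.39, 8.15 and 8.21 (2.27 ± 0.17, SE, adjusted p = 1.09e-05). UBE3C, a ubiquitin ligase bound to the proteasome, read 8.62 and 8.47 against 10.07, 9.95 and 10.07 (-1.48, adjusted p = 9.50e-07). Neither gene overlapped between the lines. The ubiquitin gene UBB (-0.84), the shuttles UBQLN2 (-0.83) and UBQLN4 (-0.82) and the unfoldase VCP (-0.59) were lower, with adjusted p from 1.70e-05 to 9.19e-05. The glucosamine and cell-line comparisons share the 3 control arrays, so values of a gene in both are not independent.

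The 2 Ramos arrays differed from each other more than KMH2 replicates did. The median SD over the members was 0.18 in Ramos, 0.04 in KMH2 control and 0.06 in KMH2 glucosamine. Over all probe sets it was 0.11, 0.07 and 0.08. Array 2 was lower than array 1 in 33 of 44 members, by at least 0.3 in 18, while 52.0% of all genes were lower on array 2, with a median difference of -0.26 over the members and -0.01 over all 17958 genes. The widest gaps were in PSME3 (10.92 and 9.81), PSMD1 (10.02 and 9.11), PSMC3 (8.81 and 7.92), PSME2 (10.77 and 9.92) and PSMG1 (9.87 and 9.07), each lower on array 2. PSMB5 was 0.22 higher on array 2, the highest such difference among the members.

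These 6 genes were picked from the ends of the Ramos array difference, and all were called in KMH2. Of the 10 members called after glucosamine, 9 differed between the Ramos arrays in the same direction, PSMD10 (0.01) being the exception. Among all 4689 genes called after glucosamine 76.6% did so. Across the 44 members the KMH2 difference and the Ramos array difference had a Pearson r of 0.76, and across all genes 0.45. These correlations are over genes, which share arrays, scale and probe design and are not independent replicates. Outside the members NFE2L1 read 9.86 and 10.75 on the Ramos arrays, PSMB9 9.99 and 9.60, and UCHL5 9.29 and 8.38. With 1 array on each side these gaps have no replicate check, and no treatment is read from them.

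**Figure D5:**
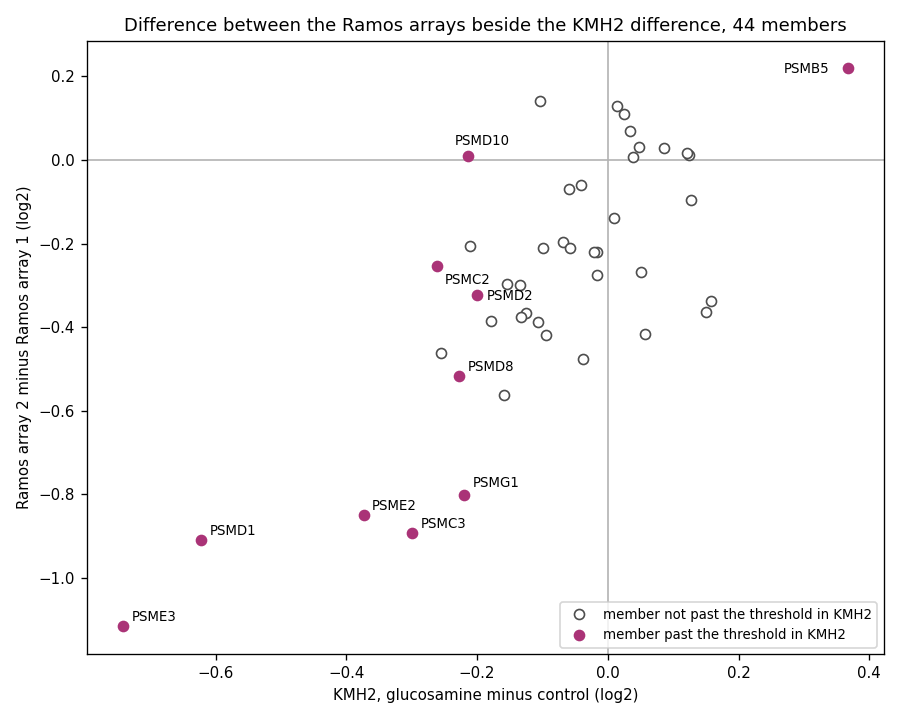
Log2 difference between Ramos array 2 and Ramos array 1 (vertical axis) against glucosamine minus control in KMH2 (horizontal axis) for the 44 proteasome genes; filled, named points have an adjusted p under 0.05 in KMH2. PSME3 (-0.74 and -1.12) and PSMD1 (-0.62 and -0.91) lie at the lower left and PSMB5 (0.37 and 0.22) at the upper right.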

How the data were processed

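Total RNA was labelled with biotin and hybridised to Affymetrix human whole-transcript array strips, 1 sample per array, as the labels' protocols state. The deposited values are log2 signals made by the authors (33297 probe sets, 1.94 to 13.21). The log2 unit was read from the values, and the tools for summarisation and normalization are not stated in the sources used here. The 2016 platform table gave 1 symbol to 19181 probe sets, which were tested. Groups were compared by limma 3.58.1 (R 4.3.3; lmFit with eBayes), two-sided, with Benjamini-Hochberg adjustment over those probe sets, with 6 KMH2 arrays for glucosamine and all 8 arrays in 3 groups for Ramos. The script was tested on simulated data. No scanner data were used, the number of arrays limits the precision, and Ramos replicates may be technical, so that p-values cover only the spread between these arrays. All 44 members matched a RefSeq gene ID, and sequences are from RefSeq (GRCh38.p14).

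Members and gene lists were chosen with earlier results of these data known. All members are named. Per-array values were given for the 8 smallest p among members in each comparison and for others the text turns on, and from the pathway list the 6 genes with the smallest p were named in each comparison. Alternatives covered scaling, dim and unnamed probe sets, probe set choice, array weights, prior variance, arrays left out and the replicate block. Arrays of the same number in both KMH2 groups deviated together (correlations 0.46, 0.23 and 0.23). Replicates 2 and 3 correlated about as much across numbers (0.25 and 0.18), so only replicate 1 stood apart as a pair. Whether the numbers pair the arrays is not settled by these values. The main fit for glucosamine left the numbers out, and the replicate block was used only as an alternative.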

Additional observations from a re-analysis of the deposited data

How the results depend on the processing

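For glucosamine, 10 members were called (1 rose, 9 fell). Array weights gave 17 calls with 16 falls, and a spread shared by all 8 arrays gave 1 call with 0 falls, the member SD in Ramos being 0.18 at the median. Leaving out each array in turn gave 5 to 13 calls, 1 rise throughout and 4 to 12 falls, with a median difference of -0.08 to -0.06. Quantile normalization, median centring and averaged probe sets each gave 10 calls, the trend and the filter on dim probe sets 13 each, the replicate block 12 (11 falls, no call lost), all probe sets 9 and omission of both replicate 1 arrays 12. For Ramos, 24 members were called (5 higher, 19 lower, median -0.25). Median centring gave 26 calls, 11 higher, and a median of -0.10, and all 6 KMH2 arrays as 1 group a median of -0.15. Leaving out each array in turn gave 22 to 33 calls, 5 to 8 higher, 17 to 28 lower, and medians from -0.31 to -0.071 (the latter without Ramos replicate 2). PSMG1 changed direction without Ramos replicate 1 (-0.22, adjusted p = 0.0408, against 0.18 with both and 0.58 without Ramos replicate 2), the cause of which was not tested. The other alternatives gave 21 to 24 calls. Signals near the low end, as for PSMA8 and PSMB11, could hide a change.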
